A study of Homo sapiens with 4 samples.

Results

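The clustered protocadherin genes on chromosome 5q31 are the protein-coding genes whose symbols begin with PCDHA, PCDHB or PCDHG on chromosome 5 of GRCh37 (hg19). They number 53 of the 20098 protein-coding genes that GENCODE release 44 places on the autosomes and X. By position and name they comprised 13 alpha genes, 16 beta genes, 12 gamma A genes, 7 gamma B genes and 5 C-type genes, namely PCDHAC1, PCDHAC2, PCDHGC3, PCDHGC4 and PCDHGC5. Their accessible sites were taken as every ATAC-seq peak that touched chr5:140100000-140950000, which comprised 34 of the 60886 merged peak regions of the whole data set. Chromatin accessibility was measured in MCF10A, a nontransformed human mammary epithelial cell line labelled Parental, and in G12V cells, which are the same line labelled H-RAS Gv12. The study's methods state that G12V cells received the HRas V12 vector by viral transduction and were selected with hygromycin. Each cell type had 2 libraries, which the study describes as biological replicates, and a separate peak list was deposited for each library. Both cell types were grown in the same medium with epidermal growth factor, insulin, cholera toxin, hydrocortisone and horse serum.

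Clustered protocadherins are cell-surface adhesion proteins best known from neurons, where each cell uses a small choice of isoforms as an identity code. Every alpha and gamma gene has its own first (variable) exon with its own promoter, and this exon is spliced to constant exons at the end of the cluster that all genes of the cluster share. Beta genes are single-exon genes without constant exons. The C-type genes stand last in the alpha and gamma clusters, and in neurons they are used far more uniformly than the other, alternate genes. Promoter choice is known to involve the DNA-binding factor CTCF and the cohesin ring, which bring variable promoters close to distant enhancers.

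The promoters with a peak in all 4 libraries belonged to the C-type genes PCDHAC1 and PCDHGC3, and PCDHAC2 had one in 3 of 4. PCDHB2 and PCDHGC5 had a peak in 1 library of each cell type. The 250 bases before the starts of the first 3 of these genes are printed from GRCh37, plus strand, to show what these promoters hold. Capitals mark the letters TGNCGCT, a short element that recurs before many of the alternate genes (described next).

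PCDHAC1, chr5:140305634-140305883: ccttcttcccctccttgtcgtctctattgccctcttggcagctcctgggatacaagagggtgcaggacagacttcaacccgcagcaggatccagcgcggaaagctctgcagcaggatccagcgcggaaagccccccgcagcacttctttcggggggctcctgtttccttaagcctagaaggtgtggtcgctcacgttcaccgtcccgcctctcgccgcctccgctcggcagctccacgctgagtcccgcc
PCDHAC2, chr5:140345805-140346054: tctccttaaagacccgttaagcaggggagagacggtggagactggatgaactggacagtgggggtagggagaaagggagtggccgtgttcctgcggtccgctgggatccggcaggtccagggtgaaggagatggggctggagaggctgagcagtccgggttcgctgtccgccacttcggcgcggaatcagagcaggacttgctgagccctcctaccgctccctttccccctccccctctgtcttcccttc
PCDHGC3, chr5:140855264-140855513: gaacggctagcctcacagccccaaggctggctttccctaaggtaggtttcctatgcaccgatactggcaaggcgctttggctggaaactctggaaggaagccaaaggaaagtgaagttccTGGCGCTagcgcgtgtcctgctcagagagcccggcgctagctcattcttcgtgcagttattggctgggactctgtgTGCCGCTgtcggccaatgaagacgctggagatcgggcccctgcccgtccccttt

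Most alpha and beta promoters share sequence that most C-type and most gamma A promoters lack. The letters TGNCGCT, searched with 0 mismatches on both strands in the 250 bases before a gene start, were present before 31 of the 48 alternate genes (64.6%) and before 1845 of all 20098 protein-coding genes (9.18%). They stood before 11 of 13 alpha, 13 of 16 beta, 3 of 12 gamma A and 4 of 7 gamma B genes, and among the C-type genes before PCDHGC3 alone (1 of 5). The first letter of the element lay a median of 48 bases before the start of these alternate genes. It overlapped a match to the CTCF consensus with 0 mismatches at PCDHB9, with 1 at PCDHB7 and PCDHB10, and with 2 at most other alpha and beta genes, but no match with up to 2 mismatches at PCDHA12, PCDHA13 or the gamma genes. The element was chosen after the promoter sequences had been seen. The lines that follow give 30 bases around it, in capitals, for alternate genes with a promoter peak in at least 1 library (PCDHA12, PCDHB2, PCDHB16, PCDHB10, PCDHB14 and PCDHGB3) and for 4 without one, which shows the alpha form TGTCGCT and the beta form TGGCGCT.

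PCDHA1, no peak, chr5:140165673-140165702: tggccacatgaTGTCGCTgtacaccacaaa
PCDHA2, no peak, chr5:140174368-140174397: tagccacatgaTGTCGCTgtccaccataga
PCDHA12, peak, chr5:140254831-140254860: cagtcacatgaTGTCGCTctacactcagaa
PCDHB2, peak, chr5:140474131-140474160: gagacgcggggTGGCGCTgcagccttagaa
PCDHB9, no peak, chr5:140566650-140566679: aagccacaaggTGGCGCTgcagactgaaga
PCDHB10, peak, chr5:140571874-140571903: aggccacacggTGGCGCTgcaggctaaaga
PCDHB14, peak, chr5:140602837-140602866: gagacacatggTGGCGCTacaggataagac
PCDHB16, peak, chr5:140561887-140561916: agaacgcgtggTGGCGCTgcaggttaagat
PCDHGA3, no peak, chr5:140723336-140723365: aggcctcttagTGTCGCTgttgaccactca
PCDHGB3, peak, chr5:140749731-140749760: gaggcgccgggTGCCGCTcttggctagtgc

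Presence of the element did not separate promoters with a peak from those without. It stood before 6 of the 11 alternate genes with a peak in any library and before 25 of the 37 without one.

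The peak lists held 12888 and 34463 peaks on the autosomes and X for MCF10A replicates 1 and 2, and 14042 and 46673 for G12V replicates 1 and 2. List length therefore differed more between replicate numbers than between cell types. Read depth is unknown from peak lists, and a promoter without a peak is one that did not pass the caller's threshold in that library, not one shown to be closed. Each peak's strength is given as its MACS score, which is 10 times the negative log10 of its p-value, and as the percentile of that score within the library's own list, because scores depend on depth. Every list ended at a score of 40, so percentiles also depend on how many weak peaks a list holds and do not remove differences in depth. As a check of the labelled cell type, promoter peaks were sought at marker genes. The 8 basal mammary markers had 3, 3, 0 and 3 promoter peaks in the 4 libraries (MCF10A 1, MCF10A 2, G12V 1, G12V 2, the order used throughout), with none in any library at KRT5, KRT14 or TP63. Of the 4 epithelial markers, KRT8 alone had a peak at its gene start, in G12V replicate 2. The 5 neuronal markers had 0, 2, 0 and 2, and the 3 haematopoietic markers (PTPRC, CD3E, SPI1) and the endothelial CDH5 had none. Promoter peaks at these markers therefore did not verify the labelled epithelial type.

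Across the locus the libraries had 17, 19, 15 and 30 peaks. Those at member promoters, taken as 1000 bp before to 500 bp after the gene start, numbered 4, 5, 2 and 16. Distal peaks, outside every protein-coding promoter, numbered 11, 13, 11 and 13. The distal counts were thus close to each other in lists that differed several-fold in length, whereas the promoter count stood apart in G12V replicate 2 alone. The distal sites were not all the same, however. Of the distal regions, 4 were in G12V replicate 2 alone, 1 in G12V replicate 1 alone and 1 in MCF10A replicate 2 alone. The remaining 2, 1, 2 and 1 peaks lay at the promoter of TAF7, a gene between the beta and gamma clusters that encodes a subunit of the general transcription factor TFIID.

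**Figure D1:**
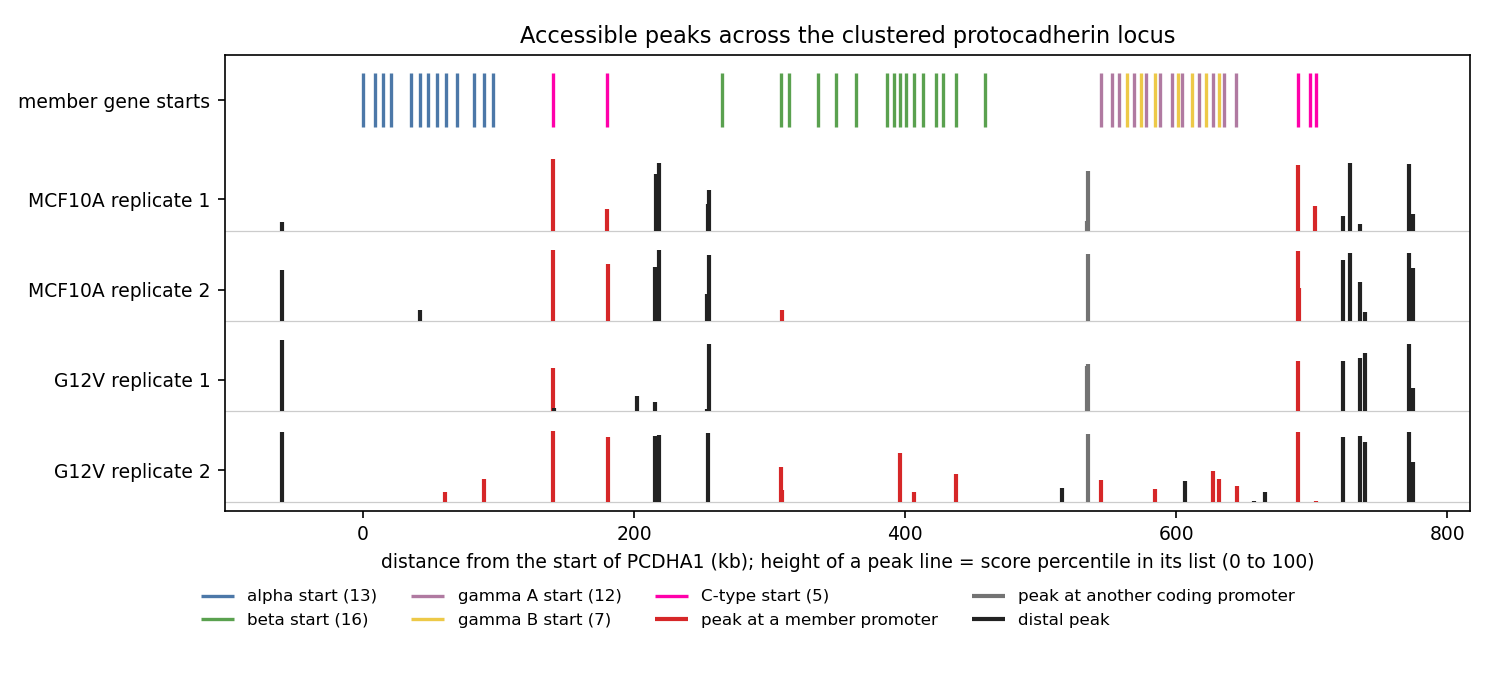
Peaks of the 4 libraries along the locus, as distance in kb from the PCDHA1 start on the horizontal axis, with the 53 member gene starts in the top row. Each vertical line is 1 peak and its height is the percentile of its score within its list. Promoter peaks among the closely spaced alpha, beta and gamma A and B starts appear almost only in G12V replicate 2. The 4 C-type promoters with a peak have one in 2 or more libraries, as do 11 of the 17 distal regions.

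Of the 53 member promoters, 4, 4, 2 and 15 had a peak in the 4 libraries, or 7.55%, 7.55%, 3.77% and 28.3%. The 95% Wilson intervals, which cover counting error only, were 2.97 to 17.9% for each MCF10A library, 1.04 to 12.8% for G12V replicate 1 and 18.0 to 41.6% for G12V replicate 2. They treat the promoters of a library as independent draws. The spread between libraries is not in them, so they do not compare the cell types. Over all protein-coding promoters the shares were 20.4%, 41.1%, 22.2% and 43.8%. The member promoters were thus below the share of all coding promoters in each of the 4 lists. In total 15 members had a peak in at least 1 library and 38 had none. MCF10A averaged 7.55% ± 0 (SD, n = 2) and G12V 16.0% ± 17.3 (SD, n = 2), a difference of 8.49 percentage points that was smaller than the spread between the G12V replicates (exact two-sided permutation test over libraries, p = 1). With 2 libraries against 2 the smallest p this test allows is 0.333, so no comparison of cell types here can pass 0.05.

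The difference between cell types changed sign with the lists used. When each list was limited to its 12888 best-scoring peaks, 4, 3, 2 and 3 member promoters had a peak, and G12V fell below MCF10A by 1.89 percentage points. Every one of these was a C-type promoter, and 0 of the 48 alternate promoters had a peak in any of the 4 lists, whereas 20.4%, 25.9%, 21.4% and 24.9% of all coding promoters did.

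**Figure D2:**
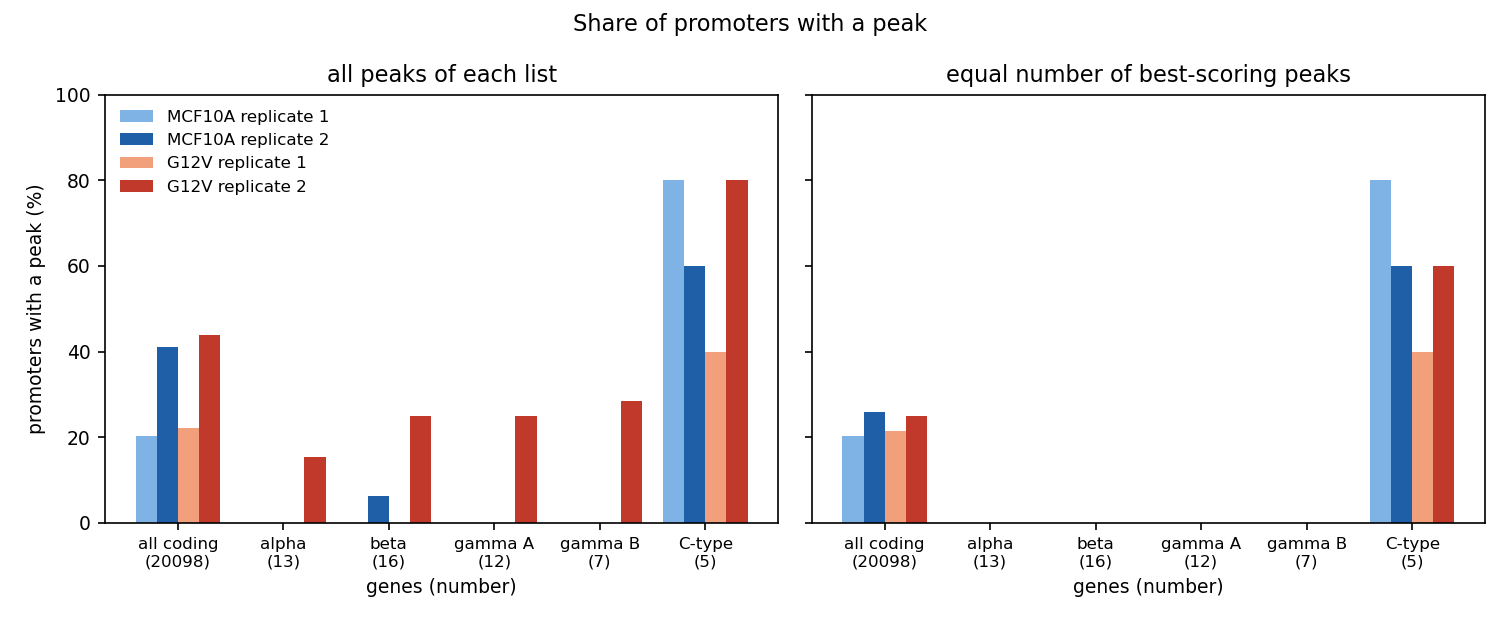
Share of promoters with a peak (%, vertical axis) for all protein-coding genes and for the 5 groups of clustered protocadherins, with a bar for each library. The left panel uses all peaks and the right panel the 12888 best-scoring peaks of each list, where the alpha, beta, gamma A and gamma B bars are at 0 in all 4 libraries and the C-type bars stand at 40 to 80%.

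Of the 5 C-type promoters, 4, 3, 2 and 4 had a peak. At PCDHAC1, the first of the C-type genes of the alpha cluster, the score was 247.19, 384.23, 69.87 and 421.66 in the 4 libraries. These scores stood at percentiles 99.5, 98.7, 59.5 and 97.7 of their lists, so the promoter was among the strongest peaks in 3 libraries and near the middle of the list in G12V replicate 1. Both G12V percentiles were below both MCF10A percentiles, with means of 78.6 in G12V and 99.1 in MCF10A. The order was narrow for G12V replicate 2 (97.7, against 98.7 in MCF10A replicate 2), and the gap in means came mainly from G12V replicate 1. Among all regions with a peak in every library, 6.94% had this order. The peaks formed region R5 (chr5:140305542-140307180), which covers the 5′ UTR and coding part of the PCDHAC1 variable exon.

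At PCDHGC3, the first C-type gene of the gamma cluster, the score was 117.69, 301.22, 77.81 and 381.35. The percentiles were 91.3, 97.1, 69.3 and 97.0, and the cell types overlapped. The region, R25, spanned chr5:140855088-140855866 and covered the gene start. MCF10A replicate 2 had a further peak just beyond it, R26 (chr5:140855893-140856626), within the coding part of the exon at percentile 45.6.

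PCDHAC2, the last variable exon of the alpha cluster, had scores of 56.37 and 125.21 in MCF10A, none in G12V replicate 1 and 223.34 in G12V replicate 2. The percentiles of these 3 peaks were 31.1, 78.9 and 90.0. PCDHGC5, the last variable exon of the gamma cluster, had a peak of 57.91 (percentile 34.4) in MCF10A replicate 1 and one of 40.24 (percentile 0.444) in G12V replicate 2, the latter just above the lowest score in the lists, 40. PCDHGC4 had no promoter peak in any library. The order of the C-type promoters by the number of libraries with a peak was thus PCDHAC1 and PCDHGC3 with 4, PCDHAC2 with 3, PCDHGC5 with 2 and PCDHGC4 with 0.

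Among the 48 alternate promoters, 0, 1, 0 and 11 had a peak in the 4 libraries. The 95% Wilson interval of the 0 of 48 in MCF10A replicate 1 and in G12V replicate 1 reached 7.41% (counting error only). It treats promoters as independent draws, although the 48 are all the alternate genes and many share sequence. PCDHB2 was the single alternate gene with a peak in more than 1 library, with 49.31 (percentile 15.9) in MCF10A replicate 2 and 71.25 (percentile 48.6) in G12V replicate 2. The other 10 had a peak in G12V replicate 2 alone, the longest list. They were the alpha genes PCDHA9 (45.09) and PCDHA12 (55.53), the beta genes PCDHB16 (101.03), PCDHB10 (45.39) and PCDHB14 (61.62), the gamma A genes PCDHGA1 (54.72), PCDHGA10 (65.02) and PCDHGA12 (49.62), and the gamma B genes PCDHGB3 (47.67) and PCDHGB7 (55.34), with scores in parentheses. In that list the best peaks of the 11 alternate promoters ranked between percentiles 12.8 and 67.0, with a median of 31.4 over genes. Of the C-type promoters, PCDHAC1, PCDHGC3 and PCDHAC2 stood at 90.0 or above, whereas PCDHGC5 stood at 0.444, below all 11. By group, 2 of 13 alpha, 4 of 16 beta, 3 of 12 gamma A and 2 of 7 gamma B promoters had a peak in G12V replicate 2. Whether the length of that list accounts for these peaks was not tested. The equal lists above kept none of them but cannot decide it. Those lists drop peaks by score, and these peaks stood at percentile 67.0 or lower.

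The peak at PCDHA9 lay with its midpoint 762 bp before the start, outside the exon, and carried an AP-1 site (TGAGTCA or TGACTCA). The PCDHB14 peak also touched the start of ENSG00000279983, an overlapping protein-coding model, so the peak cannot be assigned to either gene. The reads were kept at unique positions, and near-identical promoters lose reads to this step. Over the member promoters the share of 51-base words that occur once in GRCh37 had a median of 100% and fell to 69.8% at PCDHB13, 72.6% at PCDHB8, 76.3% at PCDHGB5 and 76.7% at PCDHGB4. None of these 4 had a peak, and the part of read loss in that was not tested.

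The promoter sequence of the members differed from that of other genes. GC content had a median of 41.2% (range 28.6 to 55.2%) over the 53 members and 55.4% over all coding promoters. The C-type promoters had a median of 51.4%, and the 10 members with a peak in 1 library had 39.8%, next to 41.5% in the 38 without a peak. The ratio of observed to expected CpG dinucleotides had a median of 0.566 in members and 0.626 in all coding promoters.

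**Figure D3:**
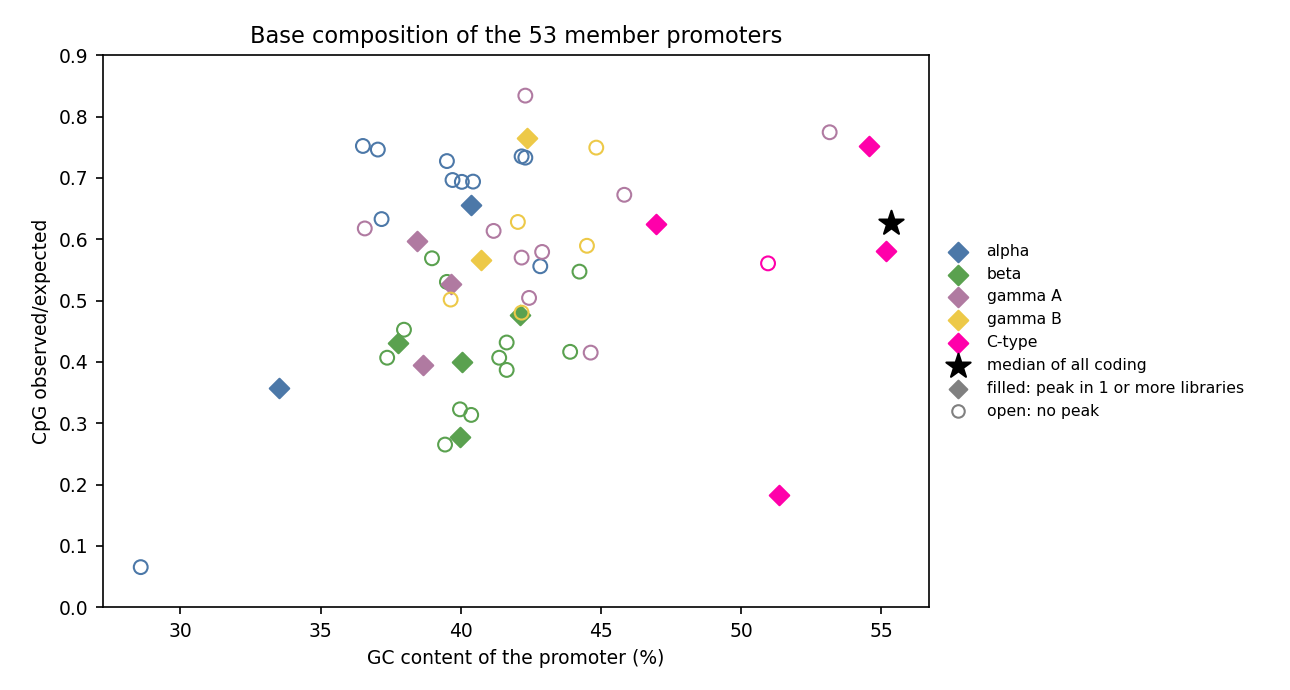
GC content (%, horizontal axis) against the CpG observed/expected ratio (vertical axis) of the 53 member promoters, coloured by group and filled where at least 1 library had a peak; the star is the median of all coding promoters. The C-type promoters lie at the GC-rich side, between 47.0 and 55.2%, and the filled alternate promoters lie among the open ones.

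The CTCF consensus, a pattern of 14 bases scanned on both strands with up to 1 mismatch, was present in the promoters of 15 of 53 members (28.3%) and in 38.5% of all coding promoters. The same pattern reversed, a control for base composition, was present in 1.89% of member and 18.5% of all coding promoters. The consensus itself, not reversed, was found in 9 of 12 gamma A, 4 of 16 beta, 2 of 13 alpha, 0 of 7 gamma B and 0 of 5 C-type promoters. Each of these 9 gamma A promoters had a match 328 to 389 bases after the gene start. Both alpha matches, at PCDHA5 and PCDHA7, lay 456 bases after it, whereas the 4 beta matches lay before it. No member promoter with a peak in 2 or more libraries held a match (0 of 5). Matches with 0 mismatches stood in the promoters of PCDHA7 and PCDHB9, neither of which had a peak.

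Within peaks, the CTCF pattern was found in 5 of 17 and 7 of 19 locus peaks in MCF10A and in 7 of 15 and 8 of 30 in G12V. These shares were 29.4%, 36.8%, 46.7% and 26.7%, with Wilson intervals of 13.3 to 53.1%, 19.1 to 59.0%, 24.8 to 69.9% and 14.2 to 44.4%. The intervals treat peaks as independent, although neighbouring peaks of 1 merged region were counted apart. A region between the alpha and beta clusters (R10) and the TAF7 promoter (R16) each gave 2 peaks with the pattern in both first replicates, and 1 in G12V replicate 2. All peaks of the same lists held it in 15.8%, 18.4%, 18.1% and 21.3%. Peak widths were not matched in this contrast. The median width was 516, 813, 523 and 541 bp in the locus and 412, 524, 420 and 551 bp in the lists. The reversed pattern was found in 1, 2, 1 and 3 locus peaks. The mean was 33.1% ± 5.25 (SD, n = 2) in MCF10A and 36.7% ± 14.1 (SD, n = 2) in G12V, and the difference of 3.54 percentage points lay within the replicate spread (exact two-sided permutation test, p = 1). In equal lists the shares were 29.4% and 33.3% in MCF10A and 46.2% and 41.7% in G12V. They no longer overlapped, and the means differed by 12.5 percentage points (exact permutation test, p = 0.333, the smallest possible). These lists held 1.32 and 0.931 locus peaks per 1000 in MCF10A and 1.01 and 0.931 in G12V. None therefore held more locus peaks than the 17 of MCF10A replicate 1, whose equal list is its full list. The separation thus rests on few peaks. No intervals were computed for these shares, and peaks of 1 merged region were still counted apart. Counted once per region, in its best-ranked peak, 8 of the 34 locus regions (23.5%) held the pattern, against 19.1% of all regions. The AP-1 letters were found in 7 of 34 (20.6%) against 36.7%, and the p53 consensus, with up to 3 mismatches, in 1 of 34 (2.94%) against 4.23%.

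CTCF matches with up to 1 mismatch under peaks of 3 or 4 libraries stood in the distal regions R1, R10, R31 and R32 and at the TAF7 promoter (R16, 2 matches). The lines that follow print the sites of 3 distal regions in 30 bases on the strand of the match, with the match in capitals. The first 3 lie in region R10, between the alpha and beta clusters; the last pair of these overlap on opposite strands. The other sites lie in R31 and R32, beyond the gamma cluster in DIAPH1.

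R10, chr5:140419938-140419967, minus strand, 1 mismatch: atctttaaCCAGCAGAGGGCGAgtcgactg
R10, chr5:140420947-140420976, minus strand, 0 mismatches: ctcatctgCCACCAGGTGGCAGgtggatcc
R10, chr5:140420950-140420979, plus strand, 1 mismatch: tccacctgCCACCTGGTGGCAGatgaggaa
R31, chr5:140904451-140904480, minus strand, 0 mismatches: atgctcagCCAGCAGGTGGCGCtgggagca
R32, chr5:140937591-140937620, minus strand, 1 mismatch: tatcttggCCGCCAGGGGGTGCcctttccc

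Region R10 (chr5:140419233-140421341) began 27.3 kb after the last exon of the alpha genes and had its midpoint 10672 bp before the PCDHB1 start. An enhancer of the alpha genes known as HS5-1 has been mapped downstream of the alpha constant exons and is bound by CTCF; R10 was not matched to it here. The highest score in R10 was 68.45 and 205.91 in MCF10A and 131.86 and 335.49 in G12V. The percentiles were 57.0 and 92.3 in MCF10A and 93.0 and 95.7 in G12V, so both G12V values were above both MCF10A values, narrowly for MCF10A replicate 2. All 3 CTCF matches were covered by peaks in all 4 libraries.

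A pair of regions, R8 (chr5:140380776-140382305) and R9 (chr5:140383412-140384641), lay in the intron between constant exons of the alpha genes. R8 was present in all libraries, at percentiles 79.5, 75.6, 13.3 and 91.0. R9 was at percentiles 94.6 and 98.4 in MCF10A, absent from G12V replicate 1 and at 93.0 in G12V replicate 2. G12V replicate 1 was thus low or without a peak at PCDHAC1, PCDHAC2, R8 and R9, where G12V replicate 2 was not. In the gamma cluster, R28 (chr5:140887949-140889454) held the matching position between constant exons and was at percentiles 21.1, 85.5, 69.8 and 89.9.

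**Figure D4:**
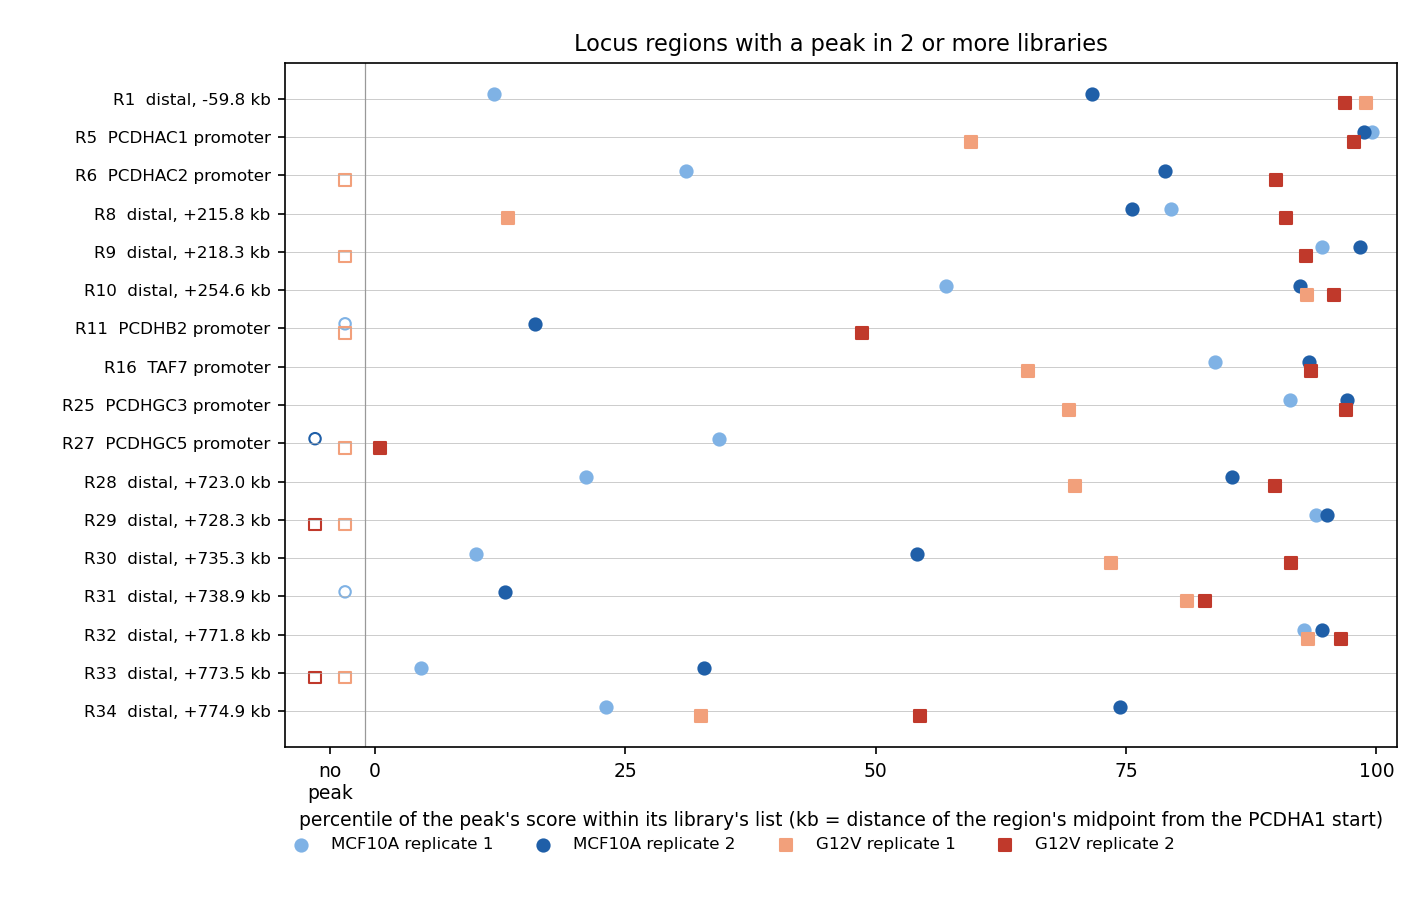
The 17 locus regions with a peak in 2 or more libraries, from the alpha to the gamma end. The horizontal axis is the percentile of the peak's score within its library's list (circles MCF10A, squares G12V), and open symbols at the left mark libraries without a peak; R29 and R33 have open squares for both G12V libraries, and no region has open circles for both MCF10A libraries.

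Regions were called gained when both G12V libraries and no MCF10A library had a peak, lost in the opposite case and shared when all 4 had one. The locus had 0 gained, 2 lost and 10 shared regions of 34, where 3.2%, 2.14% and 8.36% of all regions belonged to these classes. A further 3 regions had a peak in 3 libraries (R6, R9 and R31), 1 had peaks in MCF10A replicate 1 and G12V replicate 2 (R27, PCDHGC5), 1 in both second replicates (R11, PCDHB2) and 17 in a single library, of which 14 were in G12V replicate 2. Regions in 3 libraries made up 8.82% of the locus regions and 12.1% of all regions. Those in a crossed pair alone (differing in cell type and replicate number) made up 2.94% and 1.47%. Those in both first or both second replicates alone made up 2.94% and 16.3%. Single-library regions made up 50% of the locus regions and 56.4% of all regions, and those of G12V replicate 2 alone 41.2% and 34.6%. No member promoter was gained or lost. Of the single-library regions not at a member promoter, R2 (chr5:140208091-140208434), in the coding exon of PCDHA6 in MCF10A replicate 2, alone held a CTCF match.

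The lost region R29 (chr5:140892962-140895044) began 418 bp after the end of the gamma cluster and ran into the 3′ UTR of DIAPH1, a formin that organizes actin filaments. Its score was 130.99 and 245.18 in MCF10A, at percentiles 94.0 and 95.0, and neither G12V library had a peak there. Its 300 bases around a p53-consensus match, which both MCF10A peaks covered, are printed from chr5:140893904-140894203 of GRCh37, plus strand, with the match in capitals; the match has 3 mismatches outside the core C and G.

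R29: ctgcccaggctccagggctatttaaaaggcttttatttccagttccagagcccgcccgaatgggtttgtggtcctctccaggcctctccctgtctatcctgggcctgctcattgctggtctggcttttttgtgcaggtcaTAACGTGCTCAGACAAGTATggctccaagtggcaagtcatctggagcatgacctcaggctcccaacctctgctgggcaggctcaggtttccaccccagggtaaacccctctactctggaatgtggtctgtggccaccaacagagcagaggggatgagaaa

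The other lost region, R33 (chr5:140938985-140939521), lay in introns of DIAPH1 and of its antisense gene DIAPH1-AS1 and held an AP-1 match. It was weak, with scores of 43.18 and 58.13 at percentiles 4.62 and 32.9. It was no longer lost when the lists were made equal in length, whereas R29 was.

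R31 (chr5:140904158-140905003), in DIAPH1, stood closest to a gained region. It had no peak in MCF10A replicate 1, a peak of 47.79 in MCF10A replicate 2, and peaks of 93.77 and 162.14 in G12V. The percentiles of these 3 peaks were 12.9, 81.1 and 82.8. In equal lists the MCF10A peak was dropped and R31 was the 1 gained region of the locus.

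Of the 10 shared regions, 3 had both G12V percentiles above both MCF10A percentiles and 1 had both below, where 18.5% and 6.94% of all 5090 shared regions did so. The median difference in mean percentile, G12V minus MCF10A, was 2.84 over all shared regions and -2.06 over the 10 of the locus. The 3 were R1, R10 and R30, and the 1 was R5 at PCDHAC1. R1 (chr5:140105355-140106465) lay over VTRNA1-3, a small vault RNA gene before the alpha cluster, at percentiles 11.9 and 71.6 in MCF10A and 98.9 and 96.8 in G12V. R30 (chr5:140900500-140901540), in a DIAPH1 intron, was at 10.1 and 54.1 in MCF10A and 73.5 and 91.5 in G12V. In equal lists R30 was no longer shared. The remaining shared regions overlapped between cell types, including R16 at TAF7 (83.9, 93.3, 65.2 and 93.4) and R32 (92.8, 94.6, 93.2 and 96.4), the most even of the distal regions. R34 (chr5:140940216-140940952) was at 23.1, 74.4, 32.6 and 54.4.

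Taken over the whole locus, peaks per 1000 peaks of a list were 1.32 and 0.551 in MCF10A and 1.07 and 0.643 in G12V. The means were 0.935 ± 0.543 and 0.855 ± 0.301 (SD, n = 2 each), which did not differ beyond the replicate spread (exact two-sided permutation test, p = 1). Locus base pairs under peaks, per Mb under peaks of the list, were 1739 and 841 in MCF10A and 1200 and 736 in G12V, and the means of 1290 ± 635 and 968 ± 328 (SD, n = 2 each) gave p = 0.667 in the same exact test. In both measures the first replicates were higher than the second ones in each cell type.

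Genes outside the locus gave a further reference, to be read beside the 20.4%, 41.1%, 22.2% and 43.8% of all coding promoters with a peak. Of 12 non-clustered protocadherins, 3, 6, 3 and 7 had a promoter peak, and PCDH7, PCDH9 and PCDH12 had one in all 4 libraries. For PCDH12 this held at the annotated gene start only. No library had a peak at the promoter of any of its protein-coding transcripts. Of 11 genes for CTCF, cohesin and other known regulators of the clusters, 6, 9, 5 and 10 did, and RAD21, SMC1A, STAG1 and WAPL, which encode cohesin subunits and its release factor, had one in all 4.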

How the data were processed

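ATAC-seq was analysed in 2 MCF10A and 2 G12V libraries. Per the study's methods, the authors aligned reads to hg19 with Bowtie, kept unique reads, adjusted read starts for the transposase and called peaks with MACS (tag size 51, no model, shift size 75, local window 25000, p 0.0001). They pooled replicates for their own calls; the lists used here are per library. The deposited lists hold peak positions and the score that MACS writes (−10·log10 p); they hold no read counts.

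Peaks on the 22 autosomes and X were merged into regions on an overlap of at least 1 bp. Promoters ran from 1000 bp before to 500 bp after GENCODE 44 (GRCh37) gene starts, and sequence came from the same build. Members, gene lists and motifs were chosen with earlier results of these data known. Named were all members with a promoter peak, all regions with a peak in 2 or more libraries, and single-library regions at a member promoter or with a CTCF match. PECAM1, a listed endothelial marker, was not matched. Cell types were compared by exact two-sided permutation over libraries. Classes of regions and motif shares are descriptions without a test. Merging and motif scans were tested on simulated data. Python 3.11.15, numpy 2.4.6, pandas 2.3.3 and matplotlib 3.10.9 were used. As alternatives, lists were limited to their better-scoring 50% or to equal length, and other overlaps, windows and mismatch limits were tried and each library was left out.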

Additional observations from a re-analysis of the deposited data

How the results depend on the processing

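Values are G12V minus MCF10A. Peaks per 1000 (-0.0797) was -0.155 in equal lists, changed sign with the better-scoring 50% of each list (0.0142) and within the span of the member genes (0.0230), and ranged from -0.464 to 0.304 when each library was left out, being positive without MCF10A replicate 1 (0.304) or G12V replicate 2 (0.133). Base pairs per Mb (-322) ranged from -771 to 127, positive without MCF10A replicate 1. The promoter difference (8.49) became 0.943 percentage points in the better-scoring 50% and -1.89 in equal lists, and ranged from -3.77 (without G12V replicate 2) to 20.8 (without G12V replicate 1). The CTCF difference (3.54) became 12.5 in equal lists, 13.7 in the better-scoring 50%, 1.80 with 0 mismatches, -3.82 in windows of 150 bp and, chosen after seeing the data, -7.97 with up to 2 mismatches; it ranged from -6.46 (without G12V replicate 1) to 13.5 (without G12V replicate 2), and was -0.175 without MCF10A replicate 1. No p passed 0.05 under these settings, which none could.

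Gained regions (0) became 1 in the better-scoring 50% and in equal lists and 15 when a peak in either library sufficed, and ranged from 0 to 14 with each library left out (14 without G12V replicate 1, 1 without MCF10A replicate 2 or G12V replicate 2). Lost regions (2) became 1, 1 and 4, and ranged from 2 to 4 (4 without MCF10A replicate 1 or G12V replicate 2). Shared regions (10) became 5 in the better-scoring 50%, 8 in equal lists and 15 when a peak in either library sufficed. With each library left out they ranged from 10 to 12.

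With the replicate number as a block the mean differences were the same (-0.0797, -322, 8.49 and 3.54; exact sign-flip p of 1, 0.5, 1 and 1, with 0.5 the smallest possible). Within the replicate 1 pair 2 regions were gained and 5 lost, and within the replicate 2 pair 15 and 4. Deviations of same-numbered libraries correlated at -0.113 over all regions and 0.0704 in equal lists, so the numbers were not treated as pairing. Even so, 9940 of all regions had peaks only in both first or both second replicates, and 896 only in a crossed pair. The part of list length in this was not tested. In the crossed pairs, added after seeing the data, 16 regions were gained and 2 lost (MCF10A 1 with G12V 2), or 1 gained and 7 lost. The cause of these changes was not tested beyond the libraries and settings named.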
